A study of Mus musculus with 8 samples.

Results

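The metallothionein and zinc transporter genes of the liver were examined in *Apoe*-/- mice treated with isoginkgetin (ISOGK) or vehicle. The genes were chosen by symbol, as the 8 rows *Mt1*, *Mt2*, *Mtf1*, *Slc30a1*, *Slc30a10*, *Slc39a4*, *Slc39a5* and *Slc39a14* among the 16540 genes of the count table, and 7 of the 8 passed the filter on low counts. The 4 vehicle-treated mice received DMSO and the 4 ISOGK-treated mice received ISOGK, a biflavonoid from *Ginkgo biloba*, at a daily dose of 20 mg/kg by intraperitoneal injection over 8 weeks. Mice of both groups carried the *Apoe* knockout and ate a high-cholesterol Western diet, and the title of the deposited series gives them as male; their age is not given in the sources used here. The *Apoe* knockout is present in every cell type, and the liver samples were whole tissue, so fewer cells of a type and less RNA per cell cannot be told apart. Liver RNA was sequenced with 1 library per mouse, and p-values measure the spread between these libraries.

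Metallothioneins are small cysteine-rich proteins that bind zinc and copper, and the liver is one of their main sites of synthesis. Free zinc binds the transcription factor MTF1, which then activates the metallothionein genes and the exporter gene *Slc30a1* through short DNA motifs called metal response elements. Transporters of the Slc30 (ZnT) family move zinc out of the cytosol and those of the Slc39 (ZIP) family move it in. Inflammatory cytokines and glucocorticoids also induce metallothioneins in hepatocytes, and interleukin-6 induces *Slc39a14*.

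In the livers of ISOGK-treated mice, *Slc39a14* fell and no other member passed the test. *Slc39a14* encodes ZIP14, a transporter at the hepatocyte surface that takes up zinc, manganese and iron not bound to transferrin. The metallothioneins *Mt1* and *Mt2* differed up to 3.27-fold and 3.34-fold between mice of a single group, a spread wider than the difference between the groups. The zinc sensor *Mtf1*, the exporters *Slc30a1* and *Slc30a10* and the importer *Slc39a4* had overlapping levels in the groups. *Slc39a5* was close to the limit of detection. Levels are given as CPM, counts per 1000000 reads counted on genes after scaling by the trimmed mean of M-values (TMM), and changes as log2 fold changes of ISOGK over vehicle. With edgeR's quasi-likelihood test and an adjusted p under 0.05 over all 12307 genes tested, 1 of 7 members was called, while 7.55% of all tested genes were called in either direction and 3.44% were called lower. The median log2 fold change of the 7 members was -0.059, against 0.0018 for all tested genes.

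**Figure D1:**
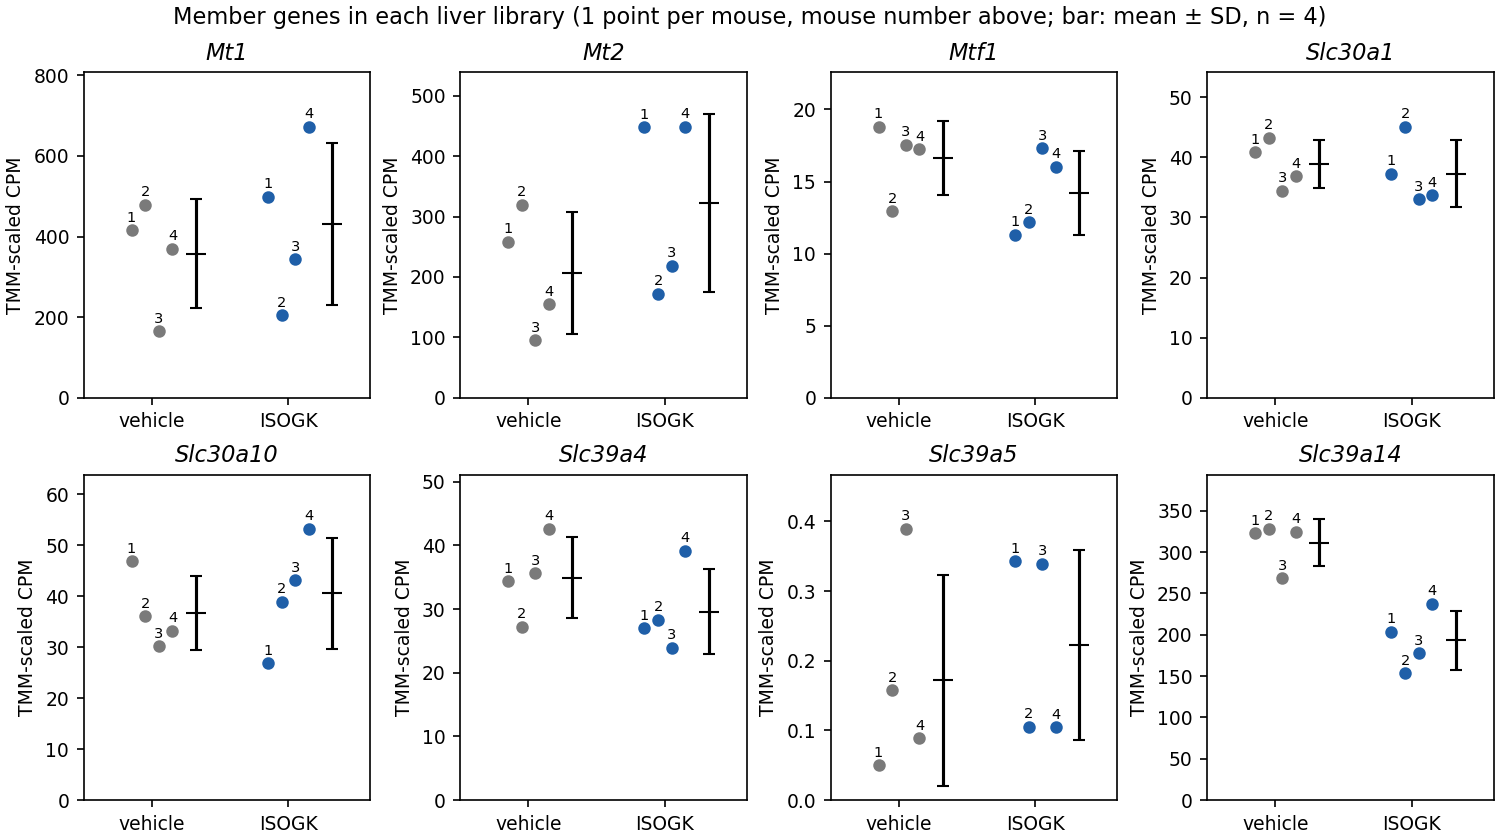
Level of each member in each liver library, in TMM-scaled CPM, for vehicle (grey) and ISOGK (blue); each point is 1 mouse with its number above it, and bars give the mean ± SD (n = 4). The groups are separate for *Slc39a14* and overlap for the other members.

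Between 17457106 and 24461854 reads per library were counted on genes. The hepatocyte markers *Alb*, *Apoa1*, *Ttr*, *Cps1*, *Ahsg*, *Fgb* and *Serpina1b* summed to between 145278 and 193920 CPM in every library. Of these 7 genes, 0 were called in edgeR's test, against 7.55% of all tested genes in either direction. The number was also 0 at an unadjusted p under 0.05, and 0 with DESeq2 or limma-voom. *Apoe* had 3252 to 6489 counts per library. Without a wild-type library beside them, these counts neither show the knockout nor speak against it. The level of 10 skeletal muscle markers was highest in vehicle-treated mouse 4, at 82.0 CPM in sum, against 0.853 to 2.49 CPM in the remaining libraries. In ISOGK-treated mouse 4, 18 of 22 acute-phase genes had their highest level of all libraries, but this share was not counted over all tested genes. Results are therefore also given without these mice.

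*Slc39a14* lies on chromosome 14 of GRCm38 from 70303469 to 70351425, on the minus strand. Its level in vehicle-treated mice 1 to 4 was 323, 328, 269 and 325 CPM. In ISOGK-treated mice 1 to 4 it was 204, 153, 178 and 238 CPM. The highest ISOGK-treated mouse was lower than the lowest vehicle-treated mouse, as was the case for 7.36% of all tested genes. The mean fell by 37.9%, from 311 ± 28.4 CPM to 193 ± 36.1 CPM (± SD, n = 4 mice each). On the log2 scale this was a change of -0.69 ± 0.13 (SE) with a 95% interval of -0.98 to -0.40 (edgeR adjusted p = 0.0101), and the two-sided exact permutation test gave p = 0.0286, the smallest that 4 mice against 4 allow. The gene did not reach an absolute log2 fold change over 1, the additional threshold that the study used for differential expression. Together with an edgeR adjusted p under 0.05, 1.63% of tested genes passed this threshold in either direction and 0.626% in the lower direction. The counts behind these values were 6434 to 8295 per vehicle library and 2902 to 4534 per ISOGK library, so that counting error was small beside the spread between mice.

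The fall of *Slc39a14* was called in all 16 alternative fits, among them DESeq2 (adjusted p = 5.22e-05) and limma-voom (adjusted p = 0.0118). Without ISOGK-treated mouse 4 its log2 fold change was -0.80 (edgeR adjusted p = 0.00378), and without both mice numbered 4 it was -0.78 (edgeR adjusted p = 0.0144). Leaving out vehicle-treated mouse 2 gave the largest adjusted p, 0.0415 in edgeR. With library size as the sole scaling, the median of all genes moved by -0.13 on the log2 scale and the log2 fold change of *Slc39a14* was -0.82. Kupffer cell markers (*Clec4f*, *Vsig4*, *Timd4*, *Cd5l*, *Marco*, *Adgre1* and *C1qa*) summed to 1014 to 1309 CPM with vehicle and 815 to 1060 CPM with ISOGK, with 0 of 7 called by edgeR (1 at an unadjusted p under 0.05, 1 with DESeq2). Stellate cell markers summed to 274 to 383 CPM with vehicle and 209 to 408 CPM with ISOGK, with 0 of 6 called by edgeR (1 at an unadjusted p under 0.05, 1 with DESeq2). Cholangiocyte markers summed to 27.5 to 34.8 CPM with vehicle and 28.2 to 69.1 CPM with ISOGK. Of these 5 genes, 1 was called higher by edgeR (4 at an unadjusted p under 0.05, 2 with DESeq2, 1 with limma-voom). Limma-voom called 0 of the Kupffer cell and 0 of the stellate cell markers. Of all tested genes, edgeR called 4.11% higher and 7.55% in either direction. All 5 cholangiocyte markers had a positive log2 fold change, at a median of 0.61. In ISOGK-treated mice 1 to 3 the cholangiocyte sum was 46.6, 69.1 and 48.9 CPM, and the stellate cell sum 332, 363 and 408 CPM. ISOGK-treated mouse 4 had the lowest value of its group in both sums. Of the 7 Kupffer cell markers, 6 had a negative log2 fold change and 1 a positive one, at a median of -0.51. Of the 6 stellate cell markers, 5 were negative and 1 positive, at a median of -0.13. The part of other cell types in the *Slc39a14* result was not tested.

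*Mt1* and *Mt2* are neighbours on the plus strand of chromosome 8, with *Mt2* from 94172664 to 94173568 and *Mt1* from 94179082 to 94180327 in GRCm38, and 5513 bases lie between them. Because both are known targets of MTF1, the 250 bases before the RefSeq transcription start of each gene are shown together with those of the MTF1 target *Slc30a1* (GRCm38.p6, gene strand, 5′ to 3′). Capitals mark matches to the core of the metal response element, searched as TGCACNC or TGCGCNC on both strands. The windows are chr8:94178839-94179088 for *Mt1*, chr8:94172368-94172617 for *Mt2* and chr1:191906531-191906780 for *Slc30a1*, all on the plus strand.
Mt1: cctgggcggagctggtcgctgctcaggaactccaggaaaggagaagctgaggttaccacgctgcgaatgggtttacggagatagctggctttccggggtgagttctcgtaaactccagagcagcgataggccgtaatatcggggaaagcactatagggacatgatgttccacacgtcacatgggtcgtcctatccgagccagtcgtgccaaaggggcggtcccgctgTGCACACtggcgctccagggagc
Mt2: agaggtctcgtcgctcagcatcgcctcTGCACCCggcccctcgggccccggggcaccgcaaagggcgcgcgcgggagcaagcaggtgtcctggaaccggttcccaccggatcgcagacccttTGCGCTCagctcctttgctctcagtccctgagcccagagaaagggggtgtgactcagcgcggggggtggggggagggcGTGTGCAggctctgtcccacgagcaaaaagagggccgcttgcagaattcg
Slc30a1: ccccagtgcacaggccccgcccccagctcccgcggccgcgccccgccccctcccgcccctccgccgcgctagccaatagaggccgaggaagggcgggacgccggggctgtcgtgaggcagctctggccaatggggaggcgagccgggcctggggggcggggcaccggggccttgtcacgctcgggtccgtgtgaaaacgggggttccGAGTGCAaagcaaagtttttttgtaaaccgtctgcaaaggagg

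The *Mt2* window held 3 matches, the *Mt1* window 1 and the *Slc30a1* window 1. Of 32851 RefSeq promoter windows of the same length, 21.4% held at least 1 match and 1.26% held at least 3. The windows of *Slc30a10*, *Slc39a5* (at the first of its annotated starts) and *Mtf1* held 3, 1 and 0 matches, and of the 3 in *Slc30a10* a pair overlapped on opposite strands. RefSeq sequences were found for 6 of the 8 members, without *Slc39a4* and *Slc39a14*. A match describes the letters of a window and is not a bound site.

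The annotation also gives shorter *Mt1* transcripts, of which Mt1-202 starts 152 bases after the RefSeq start used above. The 250 bases before that start held 5 matches, a number that 0.0822% of all promoter windows reached. This window was chosen after the first had been searched. The 5 sites are shown with 4 bases on either side (gene strand, 5′ to 3′, capitals as before). Their cores begin at positions -175, -150, -132, -68 and -54 from that start, in this order, and the first is the match already marked above.
Mt1 site 1: gctgTGCACACtggc
Mt1 site 2: gctcTGCACTCcgcc
Mt1 site 3: aaagTGCGCTCggct
Mt1 site 4: tgctGGGTGCAaacc
Mt1 site 5: ccttTGCGCCCggac

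**Figure D2:**
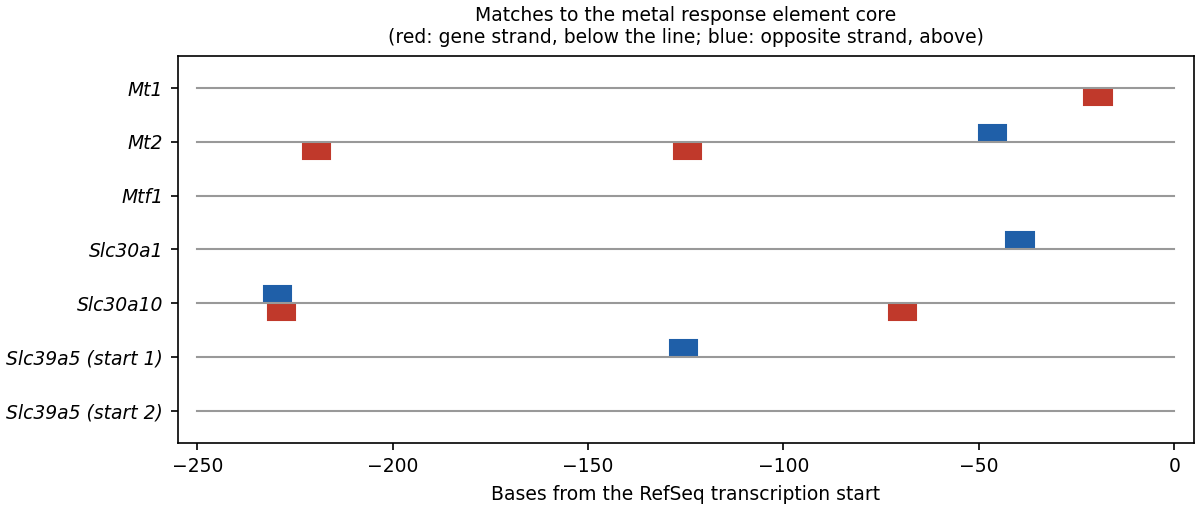
Positions of matches to the metal response element core in the 250 bases before each RefSeq start, in bases from the start; red boxes are on the gene strand and blue boxes on the opposite strand. *Mt2* and *Slc30a10* have 3 matches, and *Mtf1* and the other start of *Slc39a5* have 0.

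*Mt1* had 416, 479, 165 and 370 CPM in vehicle-treated mice 1 to 4. In ISOGK-treated mice 1 to 4 it had 499, 206, 344 and 673 CPM. The lowest mouse was in the vehicle group and the highest in the ISOGK group, and between them the groups overlapped. The means were 357 ± 136 and 430.4 ± 201.2 CPM (± SD, n = 4 mice each), a log2 fold change of 0.27 ± 0.43 (SE, 95% interval -0.74 to 1.28, edgeR adjusted p = 0.759). Leaving out ISOGK-treated mouse 4 turned this to -0.032 (edgeR adjusted p = 0.979), so the sign rested on that mouse.

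*Mt2* had 259, 320, 95.6 and 155 CPM in vehicle-treated mice 1 to 4. In ISOGK-treated mice 1 to 4 it had 448, 172, 218 and 449 CPM. ISOGK-treated mice 1 and 4 lay above all vehicle-treated mice, and mice 2 and 3 of that group lay within the vehicle range. The means were 207 ± 101 and 322 ± 147 CPM (± SD, n = 4 mice each), a log2 fold change of 0.64 ± 0.47 (SE, 95% interval -0.46 to 1.74, edgeR adjusted p = 0.464). Without ISOGK-treated mouse 4 it was 0.43 (edgeR adjusted p = 0.706). The intervals of both genes hold a log2 fold change of 1 as well as 0. By DESeq2 and limma-voom 0 of the 2 genes were called either, and 0 had an unadjusted p under 0.05 in edgeR.

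The metallothioneins stood high in these livers in level and in variation. By mean level *Mt1* was at percentile 97.8 and *Mt2* at 96.9 of all tested genes. The coefficient of variation of *Mt1* was 38.0% among vehicle-treated and 46.7% among ISOGK-treated mice, at percentiles 94.9 and 94.9 of all tested genes. That of *Mt2* was 48.6% and 45.7%, at percentiles 97.3 and 94.5. The biological coefficient of variation in edgeR was 0.419 for *Mt1* and 0.451 for *Mt2*, against 0.164 for all genes in common. *Slc39a14* varied by 9.12% and 18.7%, and *Slc30a1* by 10.2% and 14.8%.

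*Mt1* and *Mt2* rose and fell together between mice. Over the 8 libraries Pearson's r of log2 CPM was 0.902 (exact permutation test, p = 0.00203, adjusted p = 0.0102 over 5 relations), and Spearman's rho was 0.929 (exact permutation test, p = 0.00223, adjusted p = 0.0112). Without vehicle-treated mouse 3 and ISOGK-treated mouse 2, the libraries farthest from the median of *Mt1*, r was 0.859. With *Mtf1*, r was -0.110 for *Mt1* and -0.422 for *Mt2*, and with *Slc30a1* it was -0.124 and 0.035 (exact permutation test, adjusted p from 0.722 to 0.944). Spearman's rho for these 4 relations lay between -0.429 and 0 (exact permutation test, adjusted p from 0.600 to 1).

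The number of *Mt2* counts per *Mt1* count does not depend on the scaling between libraries. This ratio was examined after the values had been seen. It was 0.622, 0.667, 0.579 and 0.419 in vehicle-treated mice 1 to 4, and 0.898, 0.838, 0.635 and 0.667 in ISOGK-treated mice 1 to 4. The ranges overlapped slightly, with means of 0.572 ± 0.108 and 0.759 ± 0.128 (± SD, n = 4 mice each), and the two-sided exact permutation test gave p = 0.0857. Of the 554 stretches of 50 bases in *Mt2* transcripts, 45.9% are shared with the antisense gene *Gm45774*, and since the use of strand in counting is not given in the sources used here, reads of the gene and its antisense partner cannot be told apart. *Mt1* shared 0 of 1292 such stretches with another gene, *Mt2* included.

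The spread of *Slc39a14* followed that of *Mt1* in the ISOGK group and, in the vehicle group, at the highest and the lowest mouse. Among ISOGK-treated mice the order from highest to lowest was mouse 4, 1, 3 and 2 for *Slc39a14*, for *Mt1* and for *Mt2*. Among vehicle-treated mice, mouse 2 was highest and mouse 3 lowest for each of these genes. Mice 1, 2 and 4 of that group were close in *Slc39a14* (323, 328 and 325 CPM), with 416, 479 and 370 CPM of *Mt1*. Mice 1 and 4 stood in opposite order for *Slc39a14* and *Mt1*. After the group means of log2 CPM were subtracted, r between *Slc39a14* and *Mt1* over the 8 libraries was 0.951, the highest of the 21 pairs of tested members, whose median was 0.170. The pair *Mt1* and *Mt2* followed with 0.932 and the pair *Mt2* and *Slc39a14* with 0.842. These r are descriptions over libraries that share a scaling, without a test, and were not calculated again without vehicle-treated mouse 3. As an example of mice with similar *Mt1* in different groups, ISOGK-treated mouse 1 had 499 CPM of *Mt1* with 204 CPM of *Slc39a14*, while vehicle-treated mouse 2 had 479 CPM with 328 CPM.

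**Figure D3:**
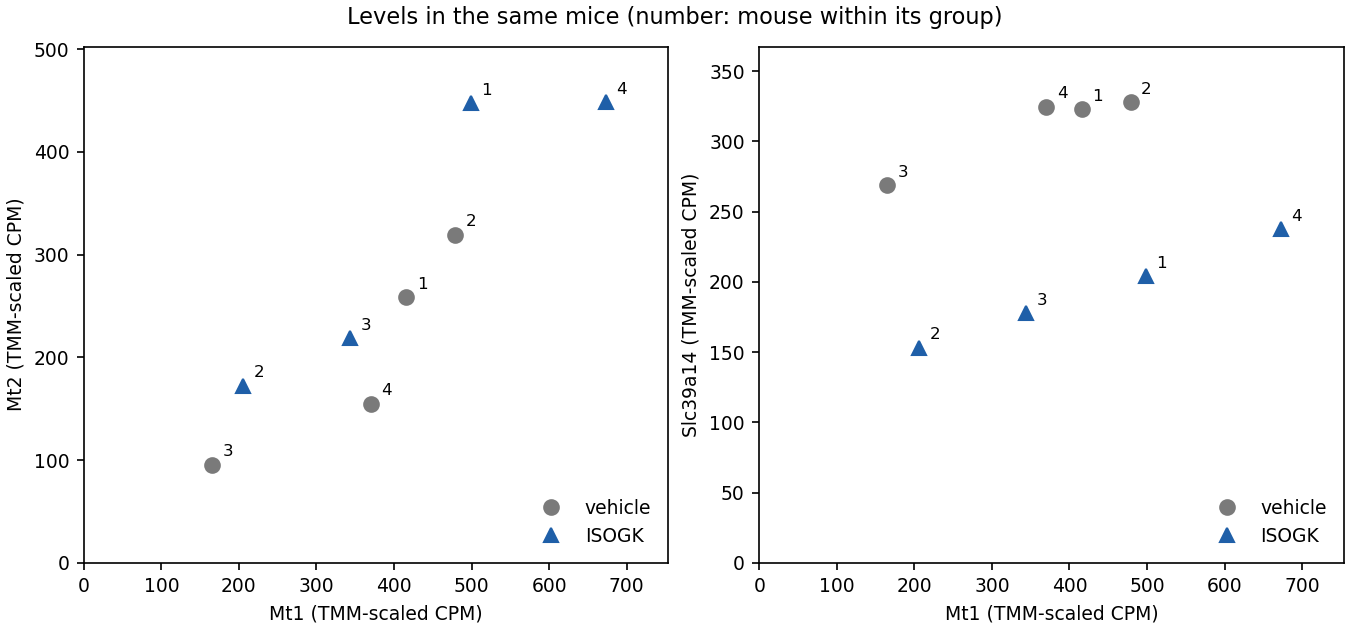
Level of *Mt2* (left) and *Slc39a14* (right) against that of *Mt1* in the same mice, in TMM-scaled CPM, for vehicle (grey circles) and ISOGK (blue triangles), with the number of each mouse. The groups lie along one band for *Mt2* and in 2 separate bands for *Slc39a14*, whose ISOGK-treated mice lie between 153 and 238 CPM.

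The genes nearest to these members by the same measure were *Hcfc2*, *Cog6* and *Uxs1* for *Mt1* (r of 0.969, 0.961 and 0.952). For *Mt2* they were *Jkamp*, *Slc18a2* and *Fastkd2* (0.976, 0.959 and 0.958). For *Slc39a14* they were *Ogg1*, *Rab4a* and *Hcfc2* (0.971, 0.967 and 0.964). None of these genes was called between the groups (edgeR adjusted p from 0.260 to 0.891). *Slc39a14* stood in place 4 of 12306 genes for *Mt1*, and *Mt2* in place 9. The highest of so many r over 8 libraries are high by selection.

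The acute-phase genes, which hepatocytes induce in inflammation, were listed beside the members because cytokines induce metallothioneins and *Slc39a14* as well. The serum amyloid gene *Saa2* had 62.5, 61.9, 35.9 and 54.4 CPM in vehicle-treated mice 1 to 4 and 142, 56.5, 33.5 and 2733 CPM in ISOGK-treated mice 1 to 4. ISOGK-treated mouse 4, with the highest *Saa2*, also had the highest *Mt1*, the highest *Mt2* and the highest *Slc39a14* of its group, and mouse 1 was next in each. The log2 fold change of *Saa2* was 3.79 ± 1.59 (SE, edgeR adjusted p = 0.210), and 0.53 without mouse 4 (edgeR adjusted p = 0.625). *Saa2* was chosen for display after its values were seen. Of the 22 acute-phase genes tested, 0 were called higher by edgeR and 1 lower, against 4.11% and 3.44% of all tested genes (2 higher and 2 lower at an unadjusted p under 0.05, and the same numbers with DESeq2). Limma-voom called 0 higher and 2 lower. The median log2 fold change of the list was 0.48, and its summed level was 27629 to 33526 CPM with vehicle and 30005 to 80880 CPM with ISOGK. In ISOGK-treated mice 1 to 3 the sum was 30868, 30953 and 30005 CPM, within the vehicle range, and mouse 4 alone lay above it. The part of the acute-phase state in the metallothionein levels was not tested.

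The gene of that list called by edgeR was *Steap4*, a metalloreductase that reduces iron and copper. It had 310 ± 46.3 CPM with vehicle and 155 ± 55.9 CPM with ISOGK (± SD, n = 4 mice each), and edgeR gave a log2 fold change of -0.9996 ± 0.26 (SE) at an adjusted p of 0.0474. *Steap4* lost its call in 8 of 16 alternatives, 6 of which each left out 1 mouse, with adjusted p up to 0.122 without vehicle-treated mouse 2.

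**Figure D4:**
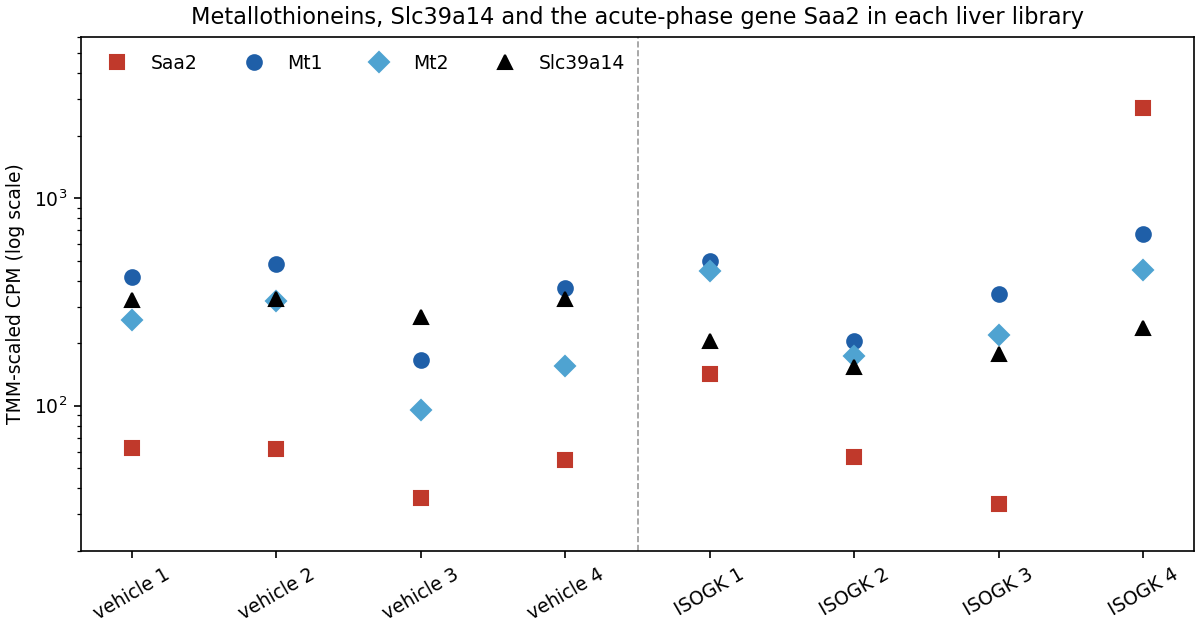
Level of *Mt1*, *Mt2*, *Slc39a14* and the acute-phase gene *Saa2* in each liver library, in TMM-scaled CPM on a log axis, with the groups divided by the dashed line. *Saa2* is at 2733 CPM in ISOGK-treated mouse 4 and between 33.5 and 142 CPM in the other 7 libraries.

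*Mtf1* encodes the zinc-sensing transcription factor of the metallothionein genes and lies on chromosome 4 from 124802104 to 124849800. Its level was 18.8, 12.9, 17.6 and 17.2 CPM in vehicle-treated mice 1 to 4 and 11.3, 12.2, 17.3 and 16.0 CPM in ISOGK-treated mice 1 to 4. ISOGK-treated mice 1 and 2 lay below all vehicle-treated mice, and mice 3 and 4 lay within the vehicle range. The log2 fold change was -0.23 ± 0.16 (SE, 95% interval -0.58 to 0.12, edgeR adjusted p = 0.421).

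*Slc30a1* encodes ZnT1, the zinc exporter of the plasma membrane (chromosome 1, 191906767 to 191913247). Its level was 40.9, 43.3, 34.5 and 36.8 CPM in vehicle-treated mice 1 to 4 and 37.3, 45.1, 33.1 and 33.7 CPM in ISOGK-treated mice 1 to 4. The groups covered nearly the same range, with a log2 fold change of -0.059 ± 0.12 (SE, 95% interval -0.31 to 0.20, edgeR adjusted p = 0.804).

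*Slc30a10* encodes a manganese exporter of the hepatocyte (chromosome 1, 185454848 to 185468762). Its level was 46.9, 36.1, 30.3 and 33.2 CPM in vehicle-treated mice 1 to 4 and 26.9, 38.9, 43.1 and 53.2 CPM in ISOGK-treated mice 1 to 4. The lowest and the highest value were both in the ISOGK group. The log2 fold change was 0.15 ± 0.20 (SE, 95% interval -0.29 to 0.59, edgeR adjusted p = 0.700), and it was -0.012 without ISOGK-treated mouse 4 (edgeR adjusted p = 0.982).

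*Slc39a4* encodes ZIP4, best known as the intestinal importer of dietary zinc (chromosome 15, 76612383 to 76617384). Its level was 34.4, 27.3, 35.6 and 42.6 CPM in vehicle-treated mice 1 to 4 and 27.0, 28.3, 23.9 and 39.2 CPM in ISOGK-treated mice 1 to 4. ISOGK-treated mice 1 and 3 lay below all vehicle-treated mice and mice 2 and 4 within their range (log2 fold change -0.24, SE 0.16, 95% interval -0.60 to 0.12, edgeR adjusted p = 0.413). Small intestine markers had 23.0 to 35.5 CPM in sum with vehicle and 28.7 to 41.5 CPM with ISOGK, nearly all of it from *Fabp2*, which hepatocytes also express.

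*Slc39a5* encodes ZIP5, an importer of the basolateral membrane (chromosome 10, 128395931 to 128401229). It had 1, 4, 10 and 2 counts in vehicle-treated mice 1 to 4 and 7, 2, 6 and 2 counts in ISOGK-treated mice 1 to 4. At these counts no difference could be detected. The gene failed the filter on low counts, and without that filter its log2 fold change was 0.32 (edgeR adjusted p = 0.869). Exocrine pancreas markers, whose tissue expresses *Slc39a5* strongly, summed to 0.283 to 2.64 CPM over the libraries.

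Levels of different members were compared per length, as the mean CPM per kilobase of the median coding transcript in the annotation. In vehicle-treated mice *Mt1* stood first with 565 ± 214 and *Mt2* next with 461 ± 224 CPM per kilobase (SD, n = 4). Both genes were measured in the same mice, so these SD do not measure the spread of their difference, which was not tested. In ISOGK-treated mice the means stood close together in the other order, with 680 ± 318 for *Mt1* and 716 ± 327 for *Mt2*. This order was not tested either, and it depends on the lengths used. *Slc39a14* followed with 148 ± 13.5 CPM per kilobase in vehicle-treated and 92.0 ± 17.2 in ISOGK-treated mice. *Slc39a4* had 14.5 ± 2.61, *Slc30a1* 7.41 ± 0.755 and *Slc30a10* 6.28 ± 1.24 CPM per kilobase with vehicle, and the last pair overlapped. *Mtf1* had 2.19 ± 0.337 and *Slc39a5* 0.0865 ± 0.0764 CPM per kilobase. The lengths are uncertain, since the coding transcripts run from 549 to 1085 bases for *Mt1* and from 388 to 511 bases for *Mt2*. Those of *Slc39a14* run from 2075 to 4926 bases, with a median of 2098 bases.

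The rest of the zinc transporter families was examined from lists of all numbered genes. Of 8 tested Slc30 genes, 0 were called by edgeR, against 7.55% of all tested genes in either direction. DESeq2 and limma-voom also called 0 of them, and 0 had an unadjusted p under 0.05. The smallest adjusted p were those of *Slc30a3*, the transporter of synaptic vesicles (log2 fold change 0.76, edgeR adjusted p = 0.219), and *Slc30a9* (log2 fold change -0.17, edgeR adjusted p = 0.358). *Slc30a3* had low counts, from 8 to 25 per library. Of 11 tested Slc39 genes, 1 was called higher (*Slc39a13*) and 1 lower (*Slc39a14*) by edgeR, against 4.11% and 3.44% of all tested genes. DESeq2 and limma-voom each called 1 higher and 1 lower, and 1 higher and 2 lower had an unadjusted p under 0.05 in edgeR. The median log2 fold changes were 0.017 for Slc30 and -0.11 for Slc39. The 2 untested Slc30 genes had at most 2 counts and the 3 untested Slc39 genes at most 11 counts in any library. *Mt3* and *Mt4* were not analysed here.

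*Slc39a13* encodes ZIP13, which acts in intracellular vesicles of connective tissue cells. It had 6.07, 5.22, 6.15 and 7.37 CPM in vehicle-treated mice 1 to 4 and 8.49, 11.1, 8.37 and 11.1 CPM in ISOGK-treated mice 1 to 4. The groups did not overlap, as for 7.92% of all tested genes in this direction, and the log2 fold change was 0.66 ± 0.15 (SE, edgeR adjusted p = 0.0256). The call was lost in 5 of 8 fits that each left out a mouse, with adjusted p up to 0.0904 without vehicle-treated mouse 2. *Slc39a10*, named here after its values were seen, had groups that did not overlap, with 4.59 ± 0.880 and 3.16 ± 0.517 CPM (± SD, n = 4 mice each), but its log2 fold change of -0.54 had an edgeR adjusted p of 0.110. Groups without overlap were found for 3 of the 11 Slc39 genes and for 15.3% of all tested genes.

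**Figure D5:**
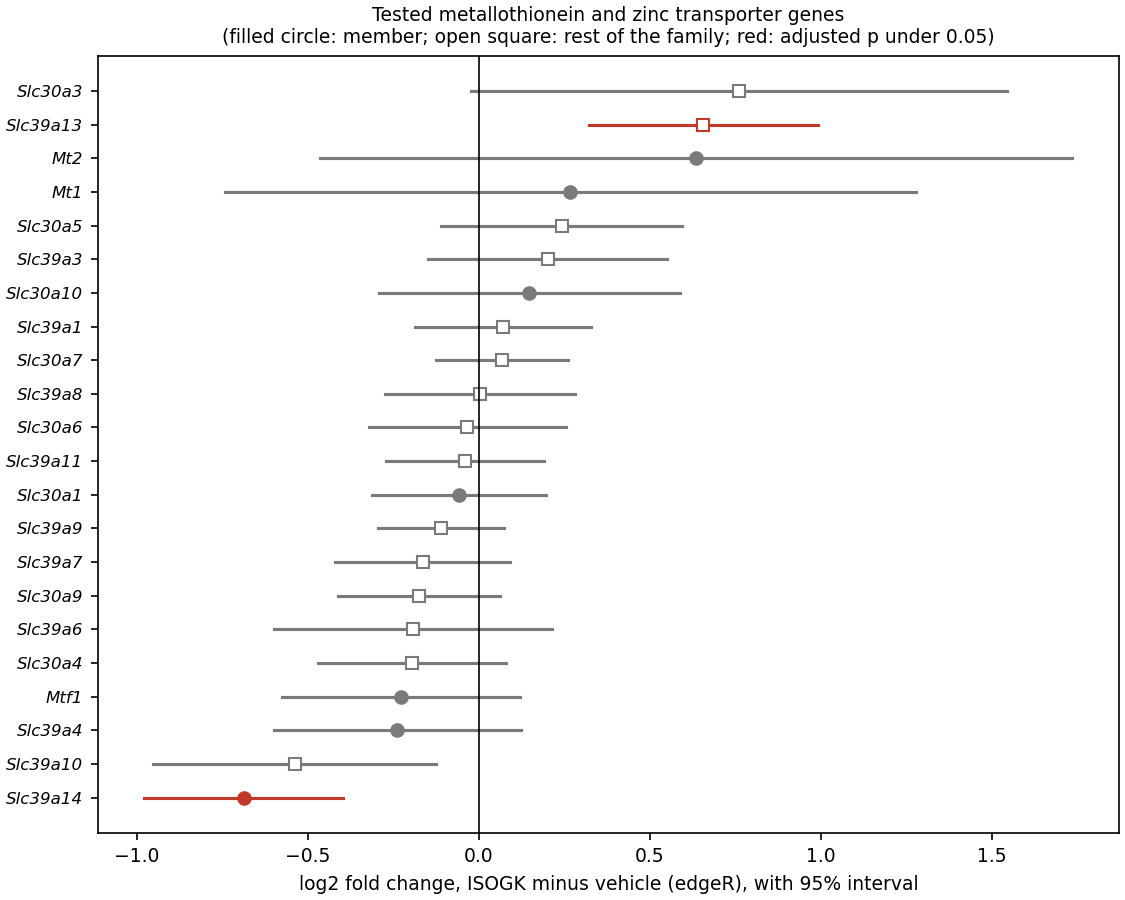
Log2 fold change (ISOGK minus vehicle) with its 95% interval from edgeR for each tested metallothionein and zinc transporter gene and *Mtf1*; filled circles are members, open squares the rest of the families, and red marks an adjusted p under 0.05. *Slc39a14* at -0.69 and *Slc39a13* at 0.66 are red, and the intervals of *Mt1* and *Mt2* are the widest among the members.

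Metallothioneins also bind copper, and a list of 13 copper handling genes that includes *Mt1* and *Mt2* had 1 gene called higher and 0 lower by edgeR, against 4.11% and 3.44% of all tested genes. At an unadjusted p under 0.05 there were 2 higher and 1 lower, and DESeq2 called the same numbers. Limma-voom called 1 higher and 0 lower. The median log2 fold change of this list was 0.061. The called gene was *Sco2*, which helps to insert copper into cytochrome c oxidase. Its level rose from 18.0 ± 1.88 to 29.98 ± 5.50 CPM (± SD, n = 4 mice each), by 0.74 ± 0.13 (SE) on the log2 scale (edgeR adjusted p = 0.00692), and it kept its call in 16 of 16 alternatives. Of 13 glucocorticoid-responsive genes, listed because glucocorticoids induce metallothioneins, 0 were called higher and 1 lower by edgeR, with the same shares of all tested genes as before (3 higher and 1 lower at an unadjusted p under 0.05, and the same numbers with DESeq2). Limma-voom called 1 of these genes higher and 1 lower. Their median log2 fold change was 0.085. The gene called by edgeR was *Nr3c1*, which encodes the glucocorticoid receptor itself, with 51.3 ± 4.74 CPM under vehicle and 38.6 ± 4.32 CPM under ISOGK (± SD, n = 4 mice each), a log2 difference of -0.41 ± 0.11 (SE, edgeR adjusted p = 0.0376). *Nr3c1* lost its call in 7 of 16 alternatives, with adjusted p up to 0.121 without vehicle-treated mouse 2.

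Reads of some further members can overlap with antisense genes. Stretches of 50 bases shared with such a gene made up 7.55% of *Mtf1*, 8.01% of *Slc30a1* and 8.36% of *Slc30a10*. The antisense partner of *Mtf1*, *1110065P20Rik*, had 51 to 145 counts per library, and counts of the antisense partners of *Mt2*, *Slc30a1* and *Slc30a10* were not used here. Of *Slc39a14*, 0.196% was shared with any other gene, and for *Slc39a4* and *Slc39a5* this share was 0.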

How the data were processed

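The authors aligned single-end Illumina reads of the liver libraries with HISAT2 and counted them per gene with StringTie. The deposited counts are raw whole numbers, 1 row per gene symbol, and mm10 is the build in the submitters' processing notes. The annotation release and the use of strand are not given in the sources used here. DMSO in a column name was read as vehicle, since the scheme of the experiment names DMSO as the vehicle.

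Genes were filtered with filterByExpr (minimum count 10, minimum total 15), scaled by TMM and fitted in edgeR 4.0.16 (R 4.3.3) with robust quasi-likelihood F-tests, group as the sole term and Benjamini-Hochberg adjustment over 12307 genes. Standard errors were derived from the F statistic. Log2 CPM used a prior count of 2. Permutation tests were exact and two-sided. Intervals on counts were not needed, and reads carry no molecular identifiers. No pair of libraries of a group agreed within sampling noise (chi-square per gene 17.1 to 93.4). Coordinates and lengths are from GENCODE M21 (GRCm38), and promoter sequences from RefSeq. The methods were tested on simulated counts of 12186 genes. In these, 104 genes were changed by an absolute log2 fold change of 1 and 91 genes by 2. Of these, edgeR recovered 81 and 90, with 20 false calls. DESeq2 recovered 86 and 89 with 34 false calls, and limma-voom 79 and 89 with 17. The called genes named in this report had absolute log2 fold changes below 1. The recovery of changes of that size is not given by these simulations.

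The members and lists were chosen with earlier results of these data known. All members were named, with the called genes of each list (or the 2 with the smallest adjusted p) and the 3 genes nearest in pattern. The alternatives were DESeq2 1.42.0, limma-voom (limma 3.58.1), other scalings and filters, a fit without the robust option, a block for the replicate number, and each mouse left out in turn; the fit without both mice numbered 4 was chosen after seeing the data.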

Additional observations from a re-analysis of the deposited data

Results flagged for a closer look

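In vehicle-treated mouse 3, *Slc39a14* stood at 269 CPM, and the rest of the vehicle group at 323 to 328 CPM. Its distance from the next mouse made up 0.911 of the whole vehicle range, more than Dixon's criterion at the 95% level allows. Of the 16 groups of values examined in this way (8 members in each group of mice), 1 exceeded the criterion, and chance alone gives about 1 in 20. This mouse also had the lowest *Mt1* and *Mt2* of all 8 libraries, at 165 and 95.6 CPM. Without it, the log2 fold change of *Slc39a14* was -0.75 (edgeR adjusted p = 0.0158).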

How the results depend on the processing

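Over the 16 alternative fits 1 member, *Slc39a14*, was called in each, with a log2 fold change of -0.80 to -0.59 when each mouse was left out in turn. The log2 fold change of *Mt1* turned to -0.032 and that of *Slc30a10* to -0.012 without ISOGK-treated mouse 4, and to -0.015 and -0.055 without both mice numbered 4, and the cause was not tested. Their highest values with a mouse left out were 0.50 and 0.30. The other 5 tested members kept their sign in all of these fits, and none of the 6 uncalled members was called in any. The number of genes called over the whole table, 929 here, was 1435 with DESeq2, 379 to 1235 with a mouse left out, and 412 without both mice numbered 4. Scaling by library size alone called 262 genes higher and 804 lower, against 506 and 423. The correlation of deviations was -0.014 to 0.085 for same-numbered mice of the groups and -0.207 to 0.219 for mice of different numbers. These few values cannot show whether same-numbered mice shared anything beyond the number. With the replicate block 827 genes and 1 member were called. *Slc39a13* lost its call in 6 fits without mice, *Slc39a10* gained one with library size alone (-0.67), and *Steap4* and *Nr3c1* also lost theirs with the block (edgeR adjusted p = 0.0554 and 0.0599). The spread of *Mt1* and *Mt2* between mice, not depth, sets the width of their intervals.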
